A study of Mus musculus with 108 samples.

Results

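The heart of A/J mice was set against the heart of 5 other inbred strains, C57BL/6J, AKR/J, C3HeB/FeJ, DBA2/J and 129S2, on oligonucleotide expression arrays. The A/J heart group held 3 of the 18 heart arrays, chosen by strain and tissue in the sample titles, and each of the other strains gave 3. The full series covers 6 strains and 6 tissues (heart, brain, kidney, liver, lung and testis), with 3 arrays for each strain in each tissue. Every animal was a male of 11 to 14 weeks with no treatment labelled, and in A/J, AKR/J, C3HeB/FeJ and DBA2/J all tissues carry the same 3 animal numbers. In C57BL/6J and 129S2 brain and lung carry the numbers of the heart arrays, while kidney, liver and testis carry wholly other numbers in C57BL/6J and share 2 of 3 in 129S2. The 129S2 animals came from another supplier than the rest, so supplier and strain cannot be told apart for 129S2. Values are log2 signals, and the A/J difference below is the A/J mean minus the mean of the 5 other strain means, given with its standard error (SE). An adjusted p is that of limma after Benjamini-Hochberg adjustment over all 18194 genes tested. A gene was called apart when its adjusted p was under 0.05 and all 3 A/J arrays lay beyond all 15 arrays of the other strains.

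Animals of an inbred strain are nearly identical in genotype, while strains differ from each other at many loci. In heart muscle, most transcripts serve contraction, calcium cycling and mitochondrial fuel use, and the ventricle and the atrium differ in light chains and natriuretic peptides. A/J carries known loss-of-function alleles of the membrane repair gene Dysf and of the complement gene Hc. The Hc alleles of the other strains were not read here, so the Hc allele is not taken as particular to A/J. A probe set reports hybridisation to short probes, so a sequence difference of a strain under a probe can change its signal as a difference in RNA would. That limit applies to every value below.

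The arrays read as heart. The mean of 14 ventricular muscle markers lay between 13.35 and 13.39 on the A/J arrays and between 13.00 and 13.43 on the others, and the mean of 8 lung markers stayed between 4.87 and 5.14 on all 18 arrays. Liver markers stood out on 1 array: the mean over 6 genes was 6.70 on A/J animal 3, against 5.74 and 5.59 on the other A/J arrays and 5.27 to 6.23 in the other strains. Alb, which encodes serum albumin, read 9.88 on A/J animal 3 and at most 7.64 on any other array. In limma 3 of the 6 liver markers were higher in A/J at an unadjusted p under 0.05 and none after adjustment, and their part in the results was not tested. Skeletal muscle markers (15 genes) averaged 7.35 on C57BL/6J animal 3 and 6.00 and 5.91 on the other C57BL/6J arrays. In A/J they ran from 6.12 to 6.29. Neutrophil markers (9 genes) averaged 6.72 on C3HeB/FeJ animal 2 and 6.41 on C57BL/6J animal 4, against 4.71 to 5.07 in A/J. Atrial muscle markers differed far more. Their mean over 10 genes ran from 8.68 to 10.59 in A/J and from 6.27 to 11.32 in the other strains. It was lowest on all 3 DBA2/J arrays (6.58 to 7.25), on C57BL/6J animal 2, on AKR/J animal 3 and on 129S2 animal 3, and was high on all 3 C3HeB/FeJ arrays (10.82 to 11.19), with the maximum of 11.32 on 129S2 animal 1. None of the 10 atrial markers passed the threshold between A/J and the other strains in limma (0 higher and 0 lower at an unadjusted p under 0.05). Of 21 lists of cell type and tissue markers, 16 held no call in limma. Of their 143 tested genes, 8 were higher and 7 lower at an unadjusted p under 0.05, beside 7.65% and 7.32% of all genes. Those lists were picked by the same test, so these counts cannot show that cell composition was unchanged. The macrophage list, which held calls, had 7 of 14 genes lower and 0 higher at an unadjusted p under 0.05.

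Of the genes tested, 706 passed the threshold in heart (3.88%): 362 were higher in A/J heart (1.99%) and 344 were lower (1.89%). The median difference over all genes was 0.0049, close to 0. A/J was apart from all 5 strains at 83 genes with higher signal (0.456%) and at 74 genes with lower signal (0.407%), 157 in all (0.863%). Whatever the p, the A/J arrays cleared all others at 112 genes on the high side (0.616%) and 102 on the low side (0.561%). The median absolute difference was 0.47 among the 83 and 0.50 among the 74, and 7 of the 83 and 9 of the 74 differed by at least 1. Just inside the threshold lay Fut8, with a difference of -0.27, and just outside lay Fcgr4, with -0.26. A stricter reading, an adjusted p under 0.05 against each of the 5 strains singly, held for 14 genes higher in A/J (0.0769%) and 24 lower (0.132%). The number of genes called changed with the arrays used. It fell to 213 higher and 198 lower without A/J animal 1, to 148 and 175 without animal 2 and to 173 and 159 without animal 3. Without 129S2 animal 2 it rose to 536 higher and 520 lower, and the genes apart to 125 and 134. With the atrial marker mean as a covariate, an alternative chosen after seeing the data, 480 genes were higher and 554 lower, and these held all 362 and all 344.

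**Figure D1:**
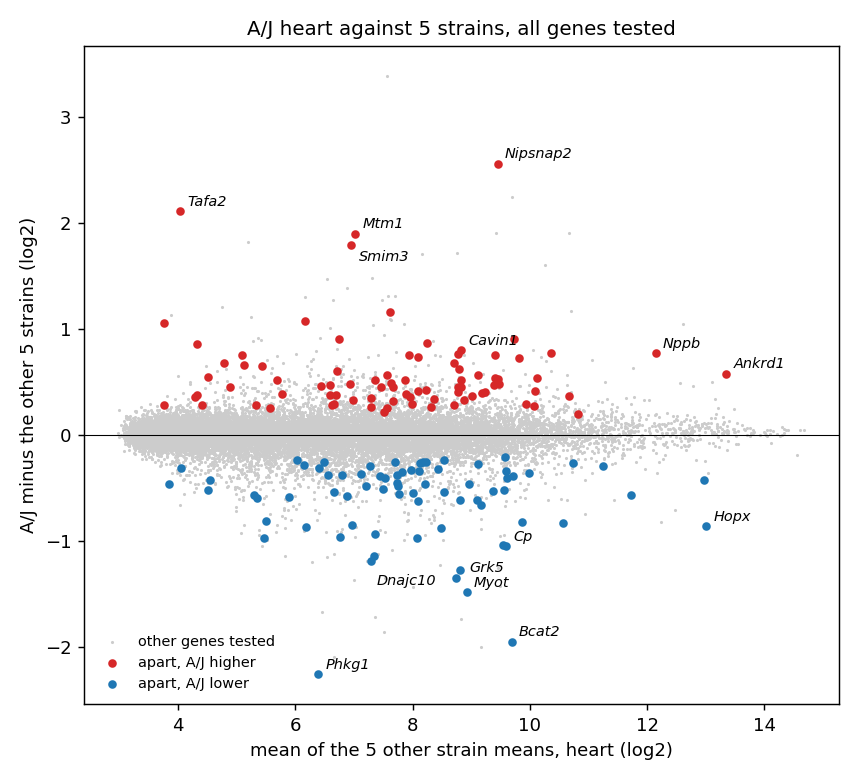
A/J heart minus the mean of the 5 other strain means (log2, vertical axis) against the mean of the 5 other strains (log2, horizontal axis) for the 18194 genes tested. Red points are the 83 genes where A/J lay above all 5 strains and blue points the 74 where it lay below; grey points are all other genes. Nipsnap2 and Phkg1 mark the extremes of the coloured points.

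The widest separation was that of Nipsnap2, a mitochondrial protein of the NIPSNAP family that takes part in marking damaged mitochondria. Its A/J arrays read 12.04, 12.10 and 11.90, while the 15 others read 8.91 at the lowest, 9.53 at the median and 10.19 at the highest. No array of another strain came near A/J: the nearest strain mean, that of C57BL/6J at 9.74, was 2.28 below the A/J mean. The difference was 2.56 ± 0.121 (SE), 5.88-fold, with an adjusted p of 7.77e-10. A further probe set for Nipsnap2, with a mean of 4.53 in A/J, gave -0.23 (adjusted p over all probe sets = 0.245), and averaging both lowered the difference to 1.16.

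Tafa2, which encodes a secreted chemokine-like protein best known from brain, was low in the other strains and clearly above that level in A/J. The A/J arrays read 5.81, 6.49 and 6.11 against 3.60, 4.04 and 4.23 elsewhere (lowest, median and highest). The groups were separated by more than the whole range of the other strains. The difference was 2.11 ± 0.126, with an adjusted p of 7.52e-09.

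Smim3, a small membrane protein, followed with 8.78, 8.85 and 8.61 in A/J against 5.75 to 7.59 in the others (median 7.10). Its other strains were spread, from an AKR/J mean of 6.31 to a 129S2 mean of 7.50, and all lay below A/J. The difference was 1.79 ± 0.139 (adjusted p = 2.38e-07). Mtm1 encodes myotubularin, a phosphoinositide phosphatase whose loss causes X-linked myotubular myopathy. It read 8.91, 9.11 and 8.75 in A/J and 6.27, 7.06 and 7.91 (lowest, median, highest) in the other strains. Here too no array overlapped, and the difference was 1.90 ± 0.148 (adjusted p = 2.5e-07). For Mtm1, 1 of the other 2 probe sets gave 2.17 and the other -0.11, which did not pass (adjusted p over all probe sets = 0.572).

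Tars, Mrpl15 and Cavin1 were among the rest of the 12 widest gaps above the other strains. Tars, the cytosolic threonyl-tRNA synthetase, read 8.78, 8.77 and 8.90 in A/J and no more than 8.26 elsewhere, a difference of 0.73 ± 0.0571. Mrpl15, a protein of the large mitochondrial ribosomal subunit, read 11.14, 11.16 and 11.10 against at most 10.59, a difference of 0.77 ± 0.0533. Both pairs of groups were narrow, and neither overlapped. Cavin1 encodes the coat protein that shapes caveolae, the plasma membrane pits abundant in muscle and endothelium. It stood at 9.63, 9.73 and 9.53 in A/J and at 8.29, 8.92 and 9.22 (lowest, median, highest) in the others. The difference of 0.79 ± 0.138 passed (adjusted p = 0.00208), and 1 of the 2 further Cavin1 probe sets passed in the same direction with 1.02. The remaining genes of this group were the zinc finger gene Zfp458 (1.05), A530016L24Rik (1.16), the dynein heavy chain gene Dnah8 (0.76), Zfand4 (0.85) and Nupr1l (0.68). Of these, Zfp458, Zfand4 and Nupr1l had A/J means of 4.81, 5.17 and 5.46, near the median signal of the heart arrays (5.08 to 5.16).

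**Figure D2:**
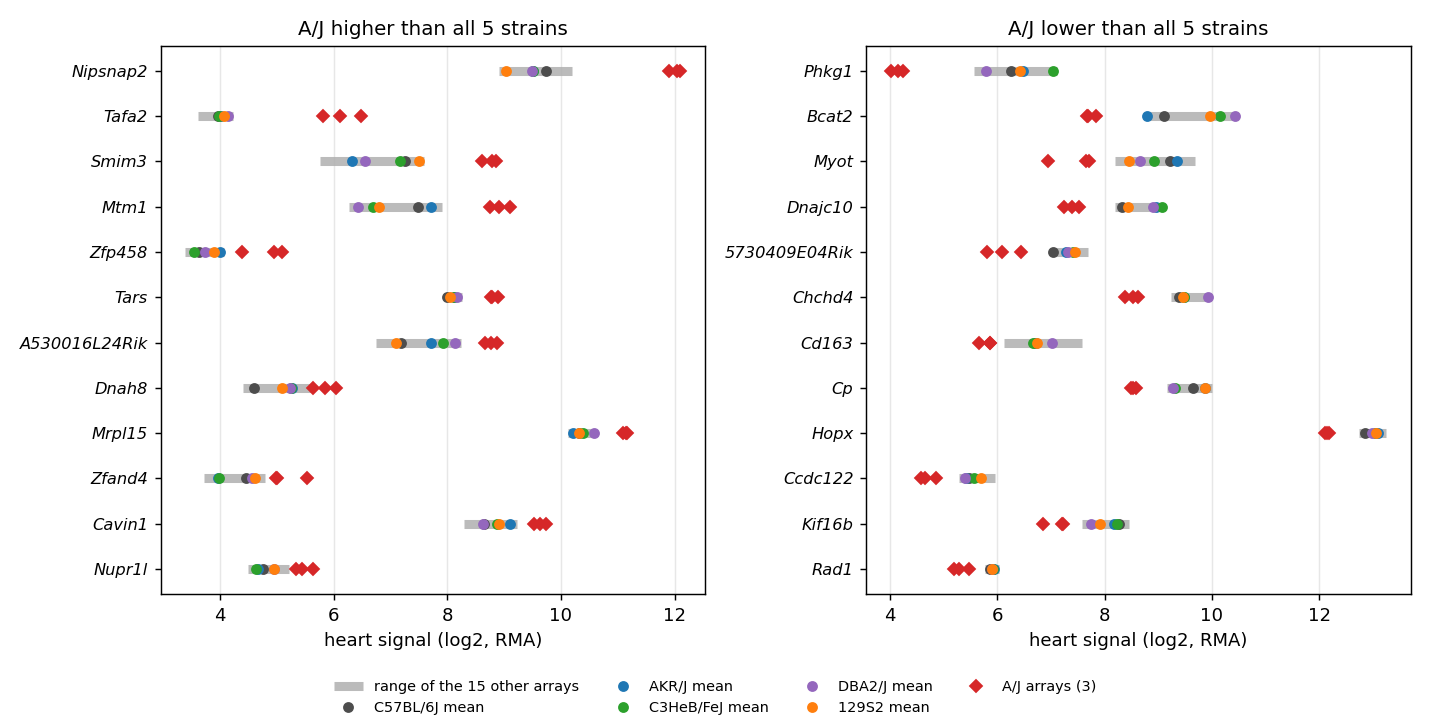
Heart signal (log2, horizontal axes) of the 12 genes with the widest gap above (left) and the 12 with the widest gap below (right) the nearest other strain mean. Red diamonds are the 3 A/J arrays, grey bars the range of the 15 other arrays and coloured circles the means of the 5 other strains; in all 24 genes the diamonds lie outside the grey bar.

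On the lower side, Phkg1 was farthest from the other strains. It encodes the muscle form of the catalytic subunit of phosphorylase kinase, the enzyme that switches on glycogen breakdown. Its A/J arrays read 4.14, 4.01 and 4.24, against 5.56, 6.23 and 7.12 (lowest, median, highest) in the other strains. All A/J values lay below the median signal of the arrays, and the nearest strain mean, that of DBA2/J at 5.79, was still clear of them. The difference was -2.26 ± 0.187 (adjusted p = 4.67e-07), and a further Phkg1 probe set gave -1.94. Of the 27 genes of glucose use tested, Phkg1 was the only member past the threshold in either direction (median over the list 0.10).

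Bcat2 encodes the mitochondrial aminotransferase that takes the first step in the breakdown of branched-chain amino acids. It read 7.69, 7.68 and 7.84 in A/J, and 8.77, 9.77 and 10.49 (lowest, median, highest) in the others. The strains above A/J were themselves far apart, with means of 8.78 in AKR/J and 9.11 in C57BL/6J but 10.44 in DBA2/J. The difference was -1.95 ± 0.0978, 3.87-fold lower than the other strains, with an adjusted p of 1.26e-09.

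Myot encodes myotilin, a protein of the Z disc that anchors the thin filaments of the sarcomere. The A/J arrays read 6.95, 7.66 and 7.71 and the others 8.20, 9.0 and 9.69 (lowest, median, highest). A/J animal 1 was the lowest, and the remaining A/J arrays were still below every other strain. The difference was -1.48 ± 0.195 (adjusted p = 0.000126), from the only Myot probe set. Grk5, a kinase that desensitises beta-adrenergic receptors, read 7.62, 7.44 and 7.53 in A/J against 7.84 to 9.76 elsewhere (median 8.86). C57BL/6J (mean 8.02) and 129S2 (8.08) came close to A/J while C3HeB/FeJ stood at 9.67, so the difference of -1.28 ± 0.0951 (adjusted p = 1.56e-07) rested more on some strains than on others. Each of the 5 pairwise contrasts for Grk5 nevertheless passed, and its second probe set gave -1.13.

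Dnajc10, Chchd4 and Cp were also among the 12 widest gaps below the other strains. Dnajc10 encodes ERdj5, a disulfide reductase of the endoplasmic reticulum. Its A/J arrays read 7.39, 7.52 and 7.24, against at least 8.20 in the other strains, a difference of -1.35 ± 0.0764. All 3 of its probe sets passed with lower signal. Chchd4 encodes the oxidoreductase that draws cysteine-rich proteins into the mitochondrial intermembrane space. It read 8.62, 8.38 and 8.52 against 9.25 to 9.98, a difference of -1.04 ± 0.0703. Cp encodes ceruloplasmin, the copper-carrying ferroxidase, and read 8.59, 8.50 and 8.53 against 9.17, 9.58 and 9.99 (lowest, median, highest). The difference for Cp was -1.05 ± 0.0787, and all 8 of its probe sets passed in the same direction.

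Hopx encodes a small homeodomain protein that does not bind DNA and restrains serum response factor in heart. Its A/J arrays read 12.18, 12.11 and 12.14 and the others 12.74, 13.00 and 13.24 (lowest, median, highest). Neither group spread widely, and they did not overlap. The difference was -0.87 ± 0.0661 (adjusted p = 2.16e-07), and a second Hopx probe set gave -0.60. The others of the 12 were 5730409E04Rik (-1.19), the kinesin gene Kif16b (-0.98), Ccdc122 (-0.81), the DNA damage checkpoint gene Rad1 (-0.59) and Cd163 (-0.97).

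Cd163 is the scavenger receptor of tissue macrophages for haemoglobin. It read 5.87, 5.87 and 5.66 in A/J and 6.12, 6.69 and 7.57 (lowest, median, highest) elsewhere, with no overlap and an adjusted p of 0.0105. The call was lost without A/J animal 2 (adjusted p = 0.0573) and without animal 3 (0.0951). Of 14 macrophage markers tested, 3 passed lower (Cd163, C1qb and C1qc; 1.89% of all genes did) and none higher, with a list median of -0.24 against 0.0049 for all genes. C1qb and C1qc, complement components made by macrophages, stood at the threshold: C1qb lost its call in 20 of 31 alternatives and C1qc in 17, in both cases without each A/J array in turn (adjusted p up to 0.236 and 0.225). The macrophage marker mean ran from 7.41 to 7.53 in A/J and from 7.26 to 8.04 in the other strains, so the ranges overlapped. In whole hearts, fewer macrophages and less RNA per macrophage cannot be told apart. Among T and NK cell markers Cd3g was apart, at 3.82, 3.69 and 3.70 against a lowest other value of 3.82, close to the floor of the arrays. Its adjusted p of 0.0169 became 0.121 without A/J animal 2, 0.118 without animal 3 and 0.0891 without C3HeB/FeJ.

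Nppb and Ankrd1, which ventricular muscle raises under stretch and load, were both apart with higher signal. Nppb encodes brain natriuretic peptide, and Ankrd1 encodes a cardiac ankyrin repeat protein that shuttles between the sarcomere and the nucleus. Their promoters are shown because both genes were apart in A/J, and whether they varied together over the arrays was not tested. The windows run from 250 bases before to 50 bases after the RefSeq start in GRCm38.p6. They lie at chr4:147985650-147985949 on the plus strand for Nppb and chr19:36119795-36120094 on the minus strand for Ankrd1. Capitals mark matches on either strand to CATTCC (the M-CAT element), to a GATA element spelled AGATAA, to a GATA element spelled TGATAA and to the TATA box spelled TATAAA.
Nppb: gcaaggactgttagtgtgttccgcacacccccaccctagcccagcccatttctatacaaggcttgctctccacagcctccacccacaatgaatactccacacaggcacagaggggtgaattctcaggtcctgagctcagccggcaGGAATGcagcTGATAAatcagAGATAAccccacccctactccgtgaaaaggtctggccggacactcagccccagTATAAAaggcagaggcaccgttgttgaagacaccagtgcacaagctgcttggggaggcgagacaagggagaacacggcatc
Ankrd1: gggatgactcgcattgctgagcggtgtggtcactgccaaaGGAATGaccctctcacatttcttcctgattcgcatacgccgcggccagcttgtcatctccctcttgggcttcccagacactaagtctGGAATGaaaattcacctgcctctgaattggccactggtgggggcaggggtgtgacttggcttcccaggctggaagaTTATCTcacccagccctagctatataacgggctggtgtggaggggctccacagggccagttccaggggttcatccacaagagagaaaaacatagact
Both windows held an M-CAT and a GATA match, as did 2.84% of 32851 RefSeq promoters of the same length. Singly, the M-CAT letters were in 14.7% of them, the first GATA spelling in 11.2%, the other in 9.05% and the TATA letters in 13.6%. None of the marked matches overlapped another. These are reference sequences, and the A/J sequence was not read here.

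The Nppb arrays of A/J read 12.82, 12.82 and 13.11, and those of the other strains 11.21, 12.27 and 12.80 (lowest, median, highest). The highest array outside A/J was AKR/J animal 3, only just below the A/J range. The difference was 0.77 ± 0.158 (adjusted p = 0.00803). Without A/J animal 3 it was 0.67 and the call was lost (adjusted p = 0.0961). Against each strain singly, Nppb passed in only 1 of the 5 pairwise contrasts in limma (largest adjusted p = 0.316). Its C57BL/6J mean was 11.48, and the means of the other strains ran from 12.20 to 12.53. Ankrd1 read 13.96, 13.85 and 13.98 in A/J and 12.71, 13.45 and 13.84 in the others. The 129S2 animal 1 array, the highest outside A/J, was level with the lowest A/J array to the first decimal and still below it. The Ankrd1 difference was 0.57 ± 0.09 (adjusted p = 0.000763), and its second probe set gave 0.61. For Ankrd1, 3 of the 5 pairwise contrasts passed in limma (largest adjusted p = 0.153). With the atrial marker mean as a covariate the differences were 0.79 for Nppb (adjusted p = 0.00518) and 0.55 for Ankrd1 (adjusted p = 0.000495). Nppa, the atrial natriuretic peptide, did not pass (0.05 ± 0.48), with A/J arrays at 14.22, 12.59 and 13.80; it is itself 1 of the 10 atrial markers.

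**Figure D3:**
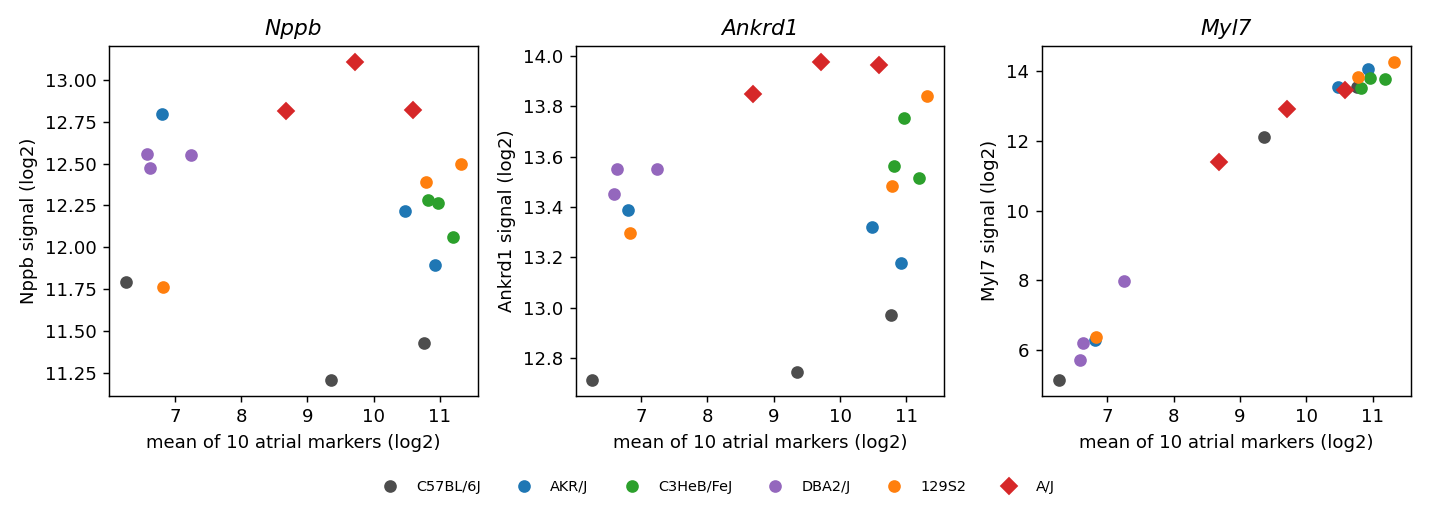
Signal of Nppb, Ankrd1 and the atrial light chain gene Myl7 (log2, vertical axes) on each of the 18 heart arrays against that array's mean over 10 atrial markers (log2, horizontal axes), with A/J as red diamonds and the other strains as coloured circles. The A/J arrays stand above all others for Nppb and Ankrd1 at atrial marker means of 8.68 to 10.59, while Myl7, itself 1 of those markers, is plotted to show their range over the arrays.

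Of 28 genes of hypertrophy and wall stress, 3 were higher (Nppb, Ankrd1 and Acta1) and 1 was lower (Uchl1), and the list median was -0.01. For this list and those that follow, the shares over all genes were 1.99% higher and 1.89% lower. At an unadjusted p under 0.05 in limma, the list held 4 higher and 5 lower genes. Myh7, also on the list, gave -0.62 ± 0.21 and did not pass (adjusted p over all probe sets = 0.129). Acta1, the skeletal alpha-actin that the stressed ventricle re-expresses, read 13.63, 13.69 and 13.65 in A/J and 10.62, 12.54 and 13.99 (lowest, median, highest) elsewhere. DBA2/J (mean 13.88) lay above A/J, so Acta1 was not apart, and C57BL/6J (11.38) lay far below. Its difference of 1.04 ± 0.22 (adjusted p = 0.00963) lost its call without A/J animal 1 (adjusted p = 0.0519), animal 2 (0.0705) or animal 3 (0.0639). Uchl1, a ubiquitin hydrolase, lost its call without A/J animal 2 (adjusted p = 0.113) or animal 3 (0.0938).

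Among 43 genes of the sarcomere and Z disc, 4 were higher (Myl1, Acta1, Ankrd1 and Tcap) and 1 was lower (Myot), with a median of 0.04. Myl1, the fast skeletal essential light chain, read 12.20, 11.88 and 11.73 in A/J and 7.37, 9.50 and 12.34 in the other strains. C3HeB/FeJ, with a mean of 12.07, stood with A/J, and the other strains were lower, DBA2/J most at 7.56. The difference for Myl1 was 2.24 ± 0.376 (adjusted p = 0.00144). Tcap, the titin cap protein, gave 0.50 and lost its call when any A/J array was left out (adjusted p from 0.0885 to 0.102). It also lost its call without DBA2/J, where the difference was 0.32 (adjusted p = 0.210), and without C3HeB/FeJ (0.0590).

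Ion channel and junction genes gave 4 calls among 38, all higher: Scn4b, Kcnd2, Kcnk2 and Gjc1 (median of the list 0.08). At an unadjusted p under 0.05 in limma the list held 9 higher and 0 lower genes, beside 7.65% and 7.32% of all genes. Scn4b, an auxiliary beta subunit of sodium channels, read 8.81, 9.24 and 8.98 in A/J and 4.51, 8.40 and 9.17 elsewhere. The low values were those of 129S2, whose mean was 4.71, whereas AKR/J at 8.93 differed from A/J by only 0.08. Without 129S2 the Scn4b difference fell from 1.31 to 0.56 (adjusted p = 0.0190). Kcnd2 carries the fast transient outward potassium current of mouse ventricle and gave 0.53 (adjusted p = 0.0136). It lost its call without A/J animal 1 (adjusted p = 0.133), animal 2 (0.0506) or animal 3 (0.0525), and without AKR/J (0.0627). Kcnk2, a stretch-activated potassium channel, gave 0.49 and lost its call without A/J animal 2 (adjusted p = 0.130). Gjc1, which encodes connexin 45, gave 0.31 and lost its call without A/J animal 1 (adjusted p = 0.121), 2 (0.103) or 3 (0.0827), and without AKR/J (0.0528) or DBA2/J (0.0527).

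The membrane and its anchoring complex were described with Dysf first, since A/J is the strain with the known Dysf allele. Dysferlin patches tears in the muscle membrane. The single Dysf probe set read 7.58, 7.55 and 7.74 in A/J and 7.70, 8.25 and 8.82 (lowest, median, highest) elsewhere. The ranges overlapped at C57BL/6J, whose mean of 7.83 was nearest, so Dysf passed without being apart (-0.63 ± 0.112, adjusted p = 0.00258). Of 26 membrane repair genes, Cavin1 was higher and Dysf lower, and 24 did not pass. Of 16 genes of the dystrophin complex, 3 were higher (1.99% of all genes were) and 2 lower (1.89%). Among the higher ones, Dtna lost its call in 6 of 31 alternatives, among them each that left out an A/J array. The lower ones lost theirs as well, Sgcb in 17 alternatives and Pomt1 in 4. Sspn (sarcospan) read 10.91, 10.83 and 11.00 in A/J, level with 129S2 (mean 10.89) and above the other strains, a difference of 0.73 ± 0.0676 (adjusted p = 2.34e-06). Sgca (alpha-sarcoglycan) gave 0.43 ± 0.0764 (adjusted p = 0.00248), with C3HeB/FeJ at 10.85 beside the A/J mean of 10.89. Hc, the gene of complement component 5, was at 4.65, 4.63 and 4.53 in A/J heart and did not pass (-0.12, adjusted p = 0.604).

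Clock genes formed the list with the highest count of calls. Of 20 tested, 7 were higher in A/J heart (1.99% of all genes were) and 1 lower (1.89%), with a list median of 0.25 against 0.0049 for all genes, and none was apart. Dbp, a transcription factor under direct clock control, read 10.52, 10.52 and 10.37 in A/J and 6.30, 8.93 and 10.45 (lowest, median, highest) elsewhere. The strains were graded rather than split: DBA2/J averaged 6.59, C3HeB/FeJ 8.26, 129S2 8.90, C57BL/6J 9.98 and AKR/J 10.04. The Dbp difference was 1.71 ± 0.319 (adjusted p = 0.00363), and Ciart, a clock repressor with the same order of DBA2/J and C3HeB/FeJ at the bottom, gave 1.38 ± 0.28 (adjusted p = 0.00734). Nfil3, a repressor that opposes Dbp at shared target sites, gave -0.80 (adjusted p = 0.00231), and Arntl, the core activator, gave -0.87 without passing (adjusted p = 0.0652). Without DBA2/J the calls for Dbp (adjusted p = 0.0835), Ciart (0.0556) and Nfil3 (0.0924) were lost, and Ciart also without A/J animal 1 (0.0623). In the fits of the other tissues, the Dbp difference was 3.05 in liver, 1.91 in kidney, 1.82 in lung and 0.58 in brain, all past the threshold there, and 0.10 for testis. None of the 8 clock calls held in every alternative. The sources used here give no hour of tissue collection.

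Histocompatibility genes were strain-specific without setting A/J alone. H2-K1 read 7.80, 8.41 and 7.95 in A/J; AKR/J and C3HeB/FeJ averaged 7.53 each, and C57BL/6J, DBA2/J and 129S2 averaged 11.18, 10.55 and 10.63. H2-D1 grouped otherwise: A/J averaged 10.95, near DBA2/J at 11.27, and AKR/J and C3HeB/FeJ were at 9.19 and 9.25. As background, A/J carries a recombinant haplotype, with the k allele at the K end, as in AKR/J and C3H mice, and the d allele at the D end, as in DBA mice. The H2-K1 difference was -1.43 in this probe set but 1.04 in a further one, and with all its probe sets averaged it was -0.19 and the call was lost (adjusted p = 0.266). The H2-D1 difference was 0.60 in this probe set, while its further probe sets ran from -1.90 to 3.60, both of these past the threshold. Probe sets of class I genes share sequence, so these levels are uncertain. In class II, H2-Ab1 (-0.80) and H2-Eb1 (-0.74) were lower, with both AKR/J and C3HeB/FeJ near or below A/J. Of 10 class II genes tested, 0 were higher and 5 lower at an unadjusted p under 0.05 in limma. H2-Ab1 lost its call without A/J animal 3 (adjusted p = 0.0649) and without C57BL/6J (-0.53, adjusted p = 0.0653). Without C57BL/6J the difference for H2-Eb1 was -0.47, still past the threshold (adjusted p = 0.0445).

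Metabolic lists gave few calls. Of 90 oxidative phosphorylation genes, only Ndufaf6, an assembly factor of complex I, passed. It was apart, at 7.67, 7.71 and 7.85 against a lowest other value of 7.86, with a difference of -0.47 (adjusted p = 0.00516) that lost its call without A/J animal 1 (adjusted p = 0.0535). Of the 90 differences, 77 were above 0 (51.8% of all genes were), at a median of 0.05 beside 0.0049 for all genes. Among 55 antioxidant genes 4 were higher and 1 lower. Glo1, the enzyme that clears methylglyoxal, passed without being apart. It read 11.75, 11.70 and 11.83 in A/J with C57BL/6J lowest at a mean of 10.07, and its difference of 0.70 was 0.46 without C57BL/6J (adjusted p = 0.00365). Of 29 genes of cholesterol and fatty acid synthesis, Cyp51 was higher (0.62 ± 0.0938) and Hsd17b7 lower (-1.35 ± 0.0787), and for Hsd17b7 C3HeB/FeJ averaged 6.24 beside 6.18 in A/J. With all probe sets of the gene averaged these were 0.32 and -0.86. Of 35 genes of fatty acid oxidation 2 were higher and none lower. Neither the 24 immediate-early genes nor the 22 inflammasome and pattern receptor genes held a call in limma; at an unadjusted p under 0.05 the former held 3 higher and 0 lower, the latter 0 higher and 4 lower.

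The remaining lists held few calls after adjustment, to be read beside the 1.99% of all genes that were higher and the 1.89% that were lower. Of 28 heat-shock chaperones none was higher and 2 were lower, Hspb6 and Hspa1b. At an unadjusted p under 0.05 in limma, 1 of the 28 was higher and 11 were lower, beside 7.65% and 7.32% of all genes. Hspa1b, an inducible chaperone, read 6.98, 6.80 and 7.71 in A/J and 6.59, 9.25 and 12.52 (lowest, median, highest) elsewhere, so its spread between animals was wide. Its difference of -2.01 ± 0.549 (adjusted p = 0.0495) lost its call in 19 of 31 alternatives. Of 34 adrenergic and cAMP signalling genes none was higher and 3 were lower, Grk5, Arrb1 and Rgs5. Of 38 interferon-stimulated genes 2 were lower and none higher, while at an unadjusted p under 0.05 in limma 12 were lower and 2 higher. Extracellular matrix genes gave 3 higher and 1 lower of 51, complement genes 1 higher and 2 lower of 20, calcium handling genes 1 each way of 27 and glucocorticoid-responsive genes 1 each way of 22. Over the pathway lists other than oxidative phosphorylation, 14 of the 58 genes past the threshold stayed past it in every alternative.

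The A/J difference was then compared between heart and the mean of the other 5 tissues, in a fit over all arrays of the series with the animal as a random block. This contrast asks whether the strain difference itself was larger in heart. It was higher in heart at 605 genes (3.33%) and lower at 672 (3.69%). Of the 83 genes apart with higher signal, 62 passed with the same sign, 21 did not pass and none had the opposite sign. Of the 74 with lower signal, 41 passed with the same sign and 2 with the opposite sign. Since these genes were picked on the same heart arrays, those counts describe them and support nothing further. The number of genes past this contrast fell to 340 higher and 389 lower without A/J animal 2, and to 313 and 310 without animal 3.

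In the other tissues, whose arrays took no part in choosing the genes but in A/J carry the same animal numbers, some differences recurred and others did not. Of the 83 higher genes, 29 passed with the same sign in kidney (7.15% of all genes were higher there), 27 in liver (7.41%), 23 in lung (5.79%), 20 in brain (3.89%) and 14 in testis (7.05%). Of the 74 lower genes, 41 passed with the same sign in kidney (6.76% lower), 34 in lung (5.68%), 32 in brain (4.23%), 32 in liver (6.89%) and 15 in testis (6.62%). In all 5 other tissues, 7 genes passed higher and 7 lower, while 34 of the higher and 19 of the lower passed with their sign in no other tissue.

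Mtm1, Bcat2, Dnajc10 and Chchd4 were of the first kind. Mtm1 differed by 1.81 in brain, 1.45 in lung, 1.24 in kidney, 1.18 in liver and 0.79 in testis. Bcat2 ranged from -1.09 in brain to -1.77 in kidney, and Dnajc10 from -1.0 in lung to -1.25 in testis. Chchd4 ranged from -0.20 in testis to -1.29 in kidney. Each passed within every tissue, and each was still farther from 0 in heart than in the mean of the others, by 0.60 for Mtm1 and by -0.37, -0.25 and -0.29 for Bcat2, Dnajc10 and Chchd4. Nipsnap2 also passed everywhere, yet its 2.56 in heart stood beside 1.29 in brain and 0.32 in liver, and the heart contrast was 1.78 ± 0.11 (adjusted p = 4.56e-23).

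Tafa2, Smim3, Myot, Nppb and Ankrd1 passed with their heart sign in no other tissue. Their signal levels in the other tissues are not given here, and a gene near the floor there could show little difference. Tafa2 lay between -0.08 and 0.01 in brain, kidney, lung and testis and at -0.40 in liver, where it passed lower. Its heart contrast of 2.21 ± 0.0991 was the largest among the genes apart (adjusted p = 2.84e-31). Smim3 passed lower in lung (-0.43) and lay between -0.05 and 0.21 in brain, kidney, liver and testis, none past the threshold. Myot lay between -0.39 and 0.23 in the other tissues, none past the threshold, with a heart contrast of -1.42 ± 0.407 (adjusted p = 0.0171). Phkg1 was lower in brain as well (-1.52), but not in kidney (0.02), liver (0.06) or testis (0.14). Cp, which liver secretes into plasma, did not pass in liver (-0.11), kidney (-0.01) or brain (-0.02), was lower in lung (-0.53) and was higher in testis (0.30). Sccpdh was higher in heart (0.76) but lower in brain (-0.40), liver (-0.44) and lung (-0.32), each past the threshold. Hopx reached -1.85 in liver, beyond its -0.87 in heart. Dysf, lower in heart by 0.63 on the log2 scale, reached -1.77 in lung and -1.23 in kidney.

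**Figure D4:**
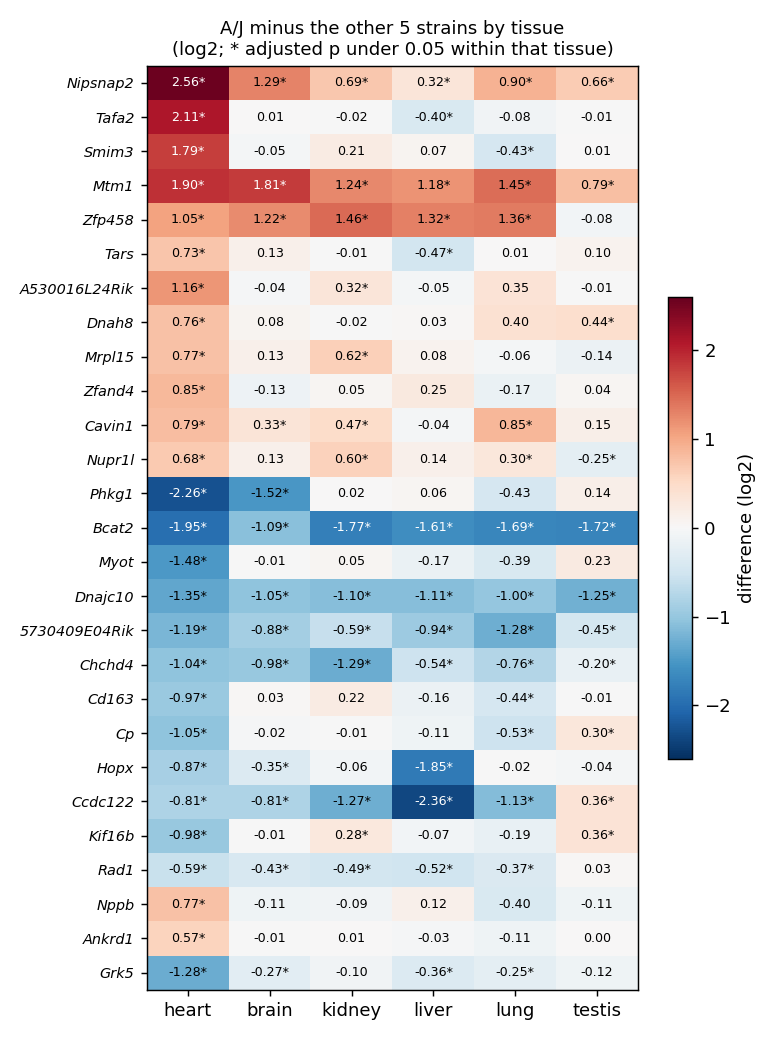
A/J minus the mean of the 5 other strain means (log2; colour and printed value) for 27 genes apart in heart, 1 per line, in heart and in each other tissue; an asterisk marks an adjusted p under 0.05 within that tissue. Mtm1, Bcat2 and Dnajc10 keep 1 colour across the line, whereas Tafa2, Smim3, Myot and Ankrd1 are coloured strongly only in the heart column.

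Several genes apart lay beside each other. Of 156 that could be placed in RefSeq gene order among 18031 tested genes, 26 had another gene apart within 5 tested genes. These made 15 pairs, of which 5 had the same direction and 10 opposite directions. Over all genes tested 0.863% were apart, and the number of such neighbours expected from placement alone was not worked out. The counts therefore do not show clustering. The densest stretch held Nipsnap2 and Phkg1, the extremes of the higher and of the lower genes. From Nipsnap2 to Gusb it had 9 tested genes, of which 3 were higher (Nipsnap2, Psph and Nupr1l) and 3 lower (Sumf2, Phkg1 and Gusb), and all but Psph of these were apart. Psph, the last enzyme of serine synthesis, gave 0.76 ± 0.103 and read 6.82, 6.83 and 6.67 in A/J against up to 6.88 elsewhere. Gusb, the lysosomal beta-glucuronidase, gave -0.46 ± 0.0794, and Sumf2 gave -0.24 ± 0.0564. Between them Cct6a, Zbed5 and Vkorc1l1 did not pass. Among the 5 tested genes on either side, the only further call was Asl, a urea cycle enzyme, with -0.34 (adjusted p = 0.0232).

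**Figure D5:**
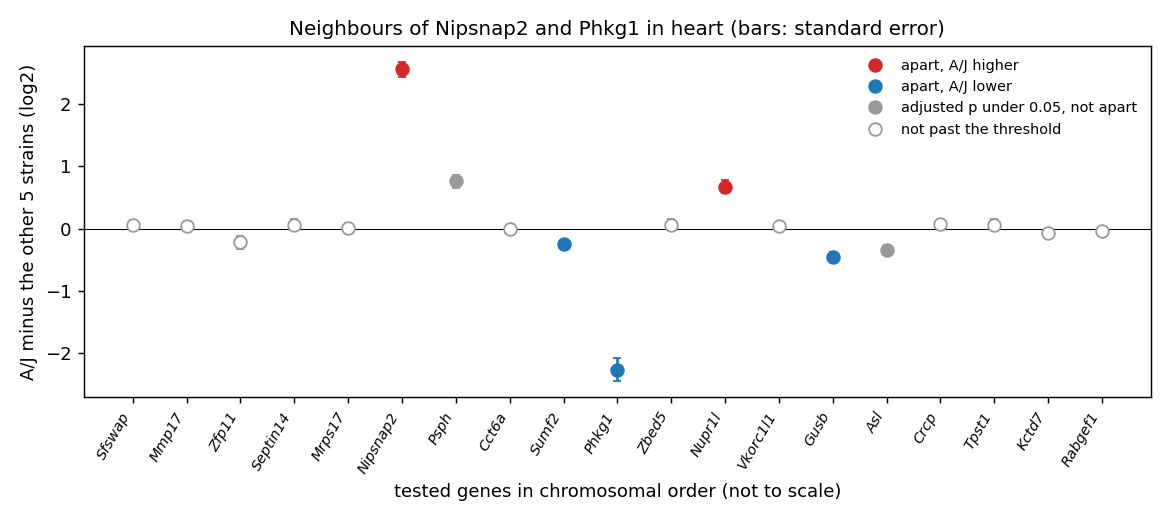
A/J minus the other 5 strains in heart (log2, vertical axis, bars are the standard error) for 19 tested genes in chromosomal order around Nipsnap2 and Phkg1 (horizontal axis, not to scale). Red and blue points are apart from all 5 strains, filled grey points passed the threshold without being apart and open points did not pass; calls in both directions lie side by side.

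In a fit over all 34945 single-gene probe sets, 1333 passed (3.81%). More than 1 probe set was present for 48 of the 83 higher and 48 of the 74 lower genes. At least 1 further probe set passed with the same sign for 22 of the 48 higher genes and for 22 of the 48 lower genes. A further probe set passed with the opposite sign for none of the higher genes and for 3 of the lower. Those 3 were Clip4, Dusp3 and Exosc1, named after their values were seen. Among the genes apart described above, Tafa2, Smim3, Tars, Zfand4, Bcat2, Chchd4, Myot, Rad1, 5730409E04Rik, Ccdc122, Cd163, Cd3g, Ndufaf6 and Nppb rested on a single probe set each. Averaging all probe sets of a gene lowered the difference to 0.54 for Zfp458, 0.38 for Dnah8 and 0.36 for Nupr1l, all still past the threshold.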

How the data were processed

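Values were the authors' log2 signals in the deposited series table, made with RMA per the submitters' processing notes (version not stated, nor whether tissues were normalized as 1 set). Titles give 1 animal per array, while the label protocol speaks of pools, so p-values measure the spread between these samples. The array number limits precision. Of 45101 probe sets, 34945 named a single gene in the platform annotation, 932 several, 9160 none and 64 were controls; for each of 18194 genes the probe set with the highest mean over all arrays was kept. Strain contrasts were fitted with limma 3.58.1 in R 4.3.3 on the 18 heart arrays (Benjamini-Hochberg, threshold 0.05), pairwise and within each other tissue likewise, and heart against other tissues on all arrays with the animal as a random block (correlation 0.017). The code was tested on simulated data. Genes named: the 12 widest gaps each way, list members apart or largest in their list, the 5 largest heart contrasts each way, Dysf and Hc. Members and lists were chosen with earlier results of these data known. Same-numbered heart arrays of different strains did not deviate together (median r 0.032 over 40 pairs, -0.014 over 95 others). Alternatives varied the prior, signal filter, probe set choice, block, weights, normalization, arrays and strains. Promoters are from RefSeq (GRCm38.p6).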

Additional observations from a re-analysis of the deposited data

Results flagged for a closer look

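Each value here is the A/J difference in heart minus the mean A/J difference over brain, kidney, liver, lung and testis (log2), and each passed the test of that difference itself. Across all genes the contrast passed at 605 genes with a higher and 672 with a lower value in heart. It takes no account of whether a gene was near the floor in the other tissues.

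Among genes whose heart signal was higher in A/J, the contrast was 2.21 for Tafa2, 1.83 for Smim3, 1.78 for Nipsnap2, 1.04 for A530016L24Rik, 0.98 for Sccpdh, 0.89 for Nppb, 0.85 for Zfand4, 0.78 for Tars, 0.64 for Mrpl15, 0.60 for both Mtm1 and Ankrd1, 0.57 for Dnah8, 0.49 for Nupr1l and 0.44 for Cavin1. Among genes whose heart signal was lower in A/J, it was -1.91 for Phkg1, -1.42 for Myot, -1.06 for Grk5, -1.05 for Kif16b, -0.98 for Cp, -0.90 for Cd163, -0.40 for Hopx, -0.38 for Cd3g, -0.37 for Bcat2, -0.36 for 5730409E04Rik, -0.34 for Ndufaf6, -0.29 for Chchd4 and -0.25 for Dnajc10. For Hc, which did not pass in heart, it was 0.39, beside A/J differences of -1.48 in liver and -1.10 in lung. These Hc differences are from the mean of all the other strains, and any of those strains that share the allele would make them smaller.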

How the results depend on the processing

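Of the 30 named genes apart, 26 stayed past the threshold in every alternative; Cd163, Cd3g, Ndufaf6 and Nppb did not. Leaving out single arrays gave 148 to 536 genes higher and 159 to 520 lower, 59 to 125 apart higher and 60 to 134 apart lower, and for heart against other tissues 313 to 431 higher and 310 to 503 lower. Array weights gave 652 higher and 660 lower. Without C57BL/6J 121 genes were apart lower. Without 129S2, 622 were lower and 167 and 191 were apart (higher, lower). The atrial covariate, chosen after seeing the data, gave 554 lower. Requiring all 5 pairwise contrasts left 14 and 24. With brain, heart and lung only, the tissue contrast passed at 341 higher and 344 lower. The replicate block gave 301 higher and 308 lower, with 73 and 66 apart. Over the named genes, 2247 results kept direction and side of the threshold and 312 lost the call; Cd59a alone reversed, to -0.092 without 129S2. The cause of these shifts was not tested.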

Other observations

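Some genes apart from all 5 strains and not yet described are given here as values; they were chosen after their values were seen, and the alternatives were not run for each of them singly. Among those higher in A/J heart were Retsat, which saturates retinol, by 0.62 ± 0.0644, Gpd1l by 0.48 ± 0.0915, Gpt, the alanine aminotransferase, by 0.45 ± 0.0731, and Bckdhb, a subunit of the branched-chain keto acid dehydrogenase that acts after Bcat2, by 0.29 ± 0.0797. The A/J arrays for Retsat read 9.44, 9.40 and 9.41 against at most 9.07 elsewhere. Bckdhb read 10.28, 10.19 and 10.22, with the highest other array level with the lowest A/J array to 2 decimals, and its adjusted p in limma was 0.0486. Pgm5, a phosphoglucomutase-like protein of muscle junctions, was higher by 0.91 ± 0.0986.

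Lower in A/J heart were Egln1, the oxygen-sensing prolyl hydroxylase that marks HIF proteins for decay (-0.57 ± 0.075), and Agt, the angiotensin precursor (-0.28 ± 0.0685). Egln1 read 11.14, 11.11 and 11.22 in A/J against at least 11.33 elsewhere. The heart value of Agt was small beside its differences of -2.47 in kidney and -2.84 in testis, and it was 0.39 in liver; all 3 passed within their tissue. Ly6e, a membrane protein induced by interferon, gave -0.83 ± 0.0917 in heart, -2.49 in kidney and -1.47 in testis. Agt and Sumf2 were the genes apart in heart whose heart contrast had the opposite sign, at 0.78 and 0.36, since their differences in other tissues were larger. In all 5 other tissues AW112010, Fbxo44, Crim1, Lsm4 and Alkbh5 also passed higher, and Bpnt2 and Rps14 lower, with heart differences of 0.68, 1.07, 0.86, 0.54, 0.53, -0.63 and -0.43 in that order.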
